A study of Homo sapiens with 6 samples.

Results

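Serine is made from the glycolytic intermediate 3-phosphoglycerate in a chain of 3 enzymes, and its side-chain carbon then enters the folate pool. The 9 enzymes of this route described here were chosen by name: PHGDH, PSAT1 and PSPH of serine synthesis, the serine hydroxymethyltransferases SHMT1 and SHMT2, and the folate enzymes MTHFD1, MTHFD2, MTHFD1L and ALDH1L2. All 9 were found by symbol among the 30741 genes of the expression table, and all 9 passed the filter on low values. RNA-seq was run on wild-type MOLM-13, an established human line from acute myeloid leukaemia, grown in RPMI-1640 with serum. Cells received 20 nM TSN, taken here as toosendanin, which the series title names, or the solvent DMSO alone, for 48 h, in 3 libraries per group described as biological replicates. Both groups are 1 cell line, so the values hold for that line. Sample titles gave the groups, since every one of the 6 samples carries DMSO as its treatment. The columns taken as DMSO carry no treatment name and were assigned because DMSO is the only other group.

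The route runs through both mitochondria and cytosol. SHMT2 moves a carbon from serine to tetrahydrofolate in mitochondria, MTHFD2 oxidises the product, and MTHFD1L releases formate, which leaves for the cytosol. There MTHFD1 puts formate back on folate for purine and thymidylate synthesis, and SHMT1 is the cytosolic counterpart of SHMT2. ALDH1L2 oxidises mitochondrial formyl-tetrahydrofolate to carbon dioxide and yields NADPH. PHGDH, PSAT1, SHMT2 and MTHFD2 are well known to be raised by the transcription factor ATF4 when amino acids are short, and several enzymes of the route are known as MYC targets.

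Levels are in FPKM, the fragments of a gene divided by its exon length and by the fragments of the whole library, so genes can be set side by side per length. Estimated depth ran from 37151500 to 50407500 fragments per library. TSN 3 stood apart, where the median tested gene was at 2.97 in log2(FPKM + 1), while the remaining 5 libraries had medians of 3.30 to 3.46, and TSN 2 and TSN 3 correlated at only r = 0.913 across genes. Values that moved with TSN 3 or DMSO 3 are therefore also given without them. Of 10 myeloid markers, all were above 1 FPKM in some library, and MPO stood between 1989 and 3668 FPKM. Their summed level was 3623 to 3897 FPKM in DMSO and 2296 to 2359 in TSN, most of it MPO, which was lower in every TSN library. CEBPA was also lower in TSN without overlap (27.25 to 37.46 FPKM in DMSO, 16.15 to 25.79 in TSN). Some myeloid markers went the other way without overlap, namely CD44 (31.15 to 35.36 FPKM in DMSO, 70.42 to 85.57 in TSN), ITGAM (2.625 to 3.778 and 8.702 to 14.25), SPI1 (64.39 to 85.73 and 94.46 to 182.2) and CSF1R (2.031 to 2.504 and 2.769 to 4.065). The groups overlapped in CD33, FLT3, LYZ and PTPRC. Summed levels of the lymphoid markers found were 6.741 to 8.021 FPKM in DMSO and 7.634 to 15.77 in TSN, with CD3E close to 0 in every library. Sums of the epithelial or fibroblast markers were 9.253 to 10.05 and 18.64 to 34.97 FPKM, mostly KRT18 (5.350 to 5.725 and 13.95 to 30.92 FPKM) and EPCAM (3.219 to 3.865 and 3.561 to 3.975 FPKM, with overlap), while CDH1 was at or near 0. Erythroid and megakaryocytic markers summed to 1.678 to 2.586 and 3.211 to 3.582 FPKM. The part of these shifts in the results was not tested. In bulk RNA, fewer cells of a kind and less RNA per cell cannot be told apart.

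After TSN, PSAT1 fell to 0.411 times and MTHFD1L to 0.492 times its mean FPKM in DMSO, and no difference in the other 7 enzymes passed the test. By limma on log2(FPKM + 1), with Benjamini-Hochberg adjustment over all 11440 tested genes and a threshold of 0.05, 2 of the 9 enzymes fell and 0 rose. Over all tested genes 14.9% were called, 7.2% as lower and 7.71% as higher, while 30.8% had an unadjusted p under 0.05. The values of the groups did not overlap in 4 of the 9 enzymes, a share near the 39.2% of all tested genes. PSAT1, MTHFD1L and PSPH were the lower ones and MTHFD2 the higher one, where 22.9% and 16.2% of all tested genes were lower and higher without overlap. The median log2 fold change of the 9 was -0.25, beside -0.10 over all tested genes. By sign, 5 of the 9 log2 fold changes were below 0 and 4 above 0, beside 6656 below 0 and 4784 above 0 over all 11440 tested genes. Those of PHGDH and MTHFD1 changed sign when certain libraries were left out. With 1 library left out, 0 (without TSN 1) to 3 (without TSN 3) of the 9 were called. Over all genes, 24 of 11074 tested were called without TSN 1 and 2513 of 11132 without TSN 3. Without DMSO 3 and TSN 3 together, a pair chosen from the data, 5 of the enzymes were called, with ALDH1L2 below the filter. Over all genes 2978 of 10790 were then called.

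**Figure D1:**
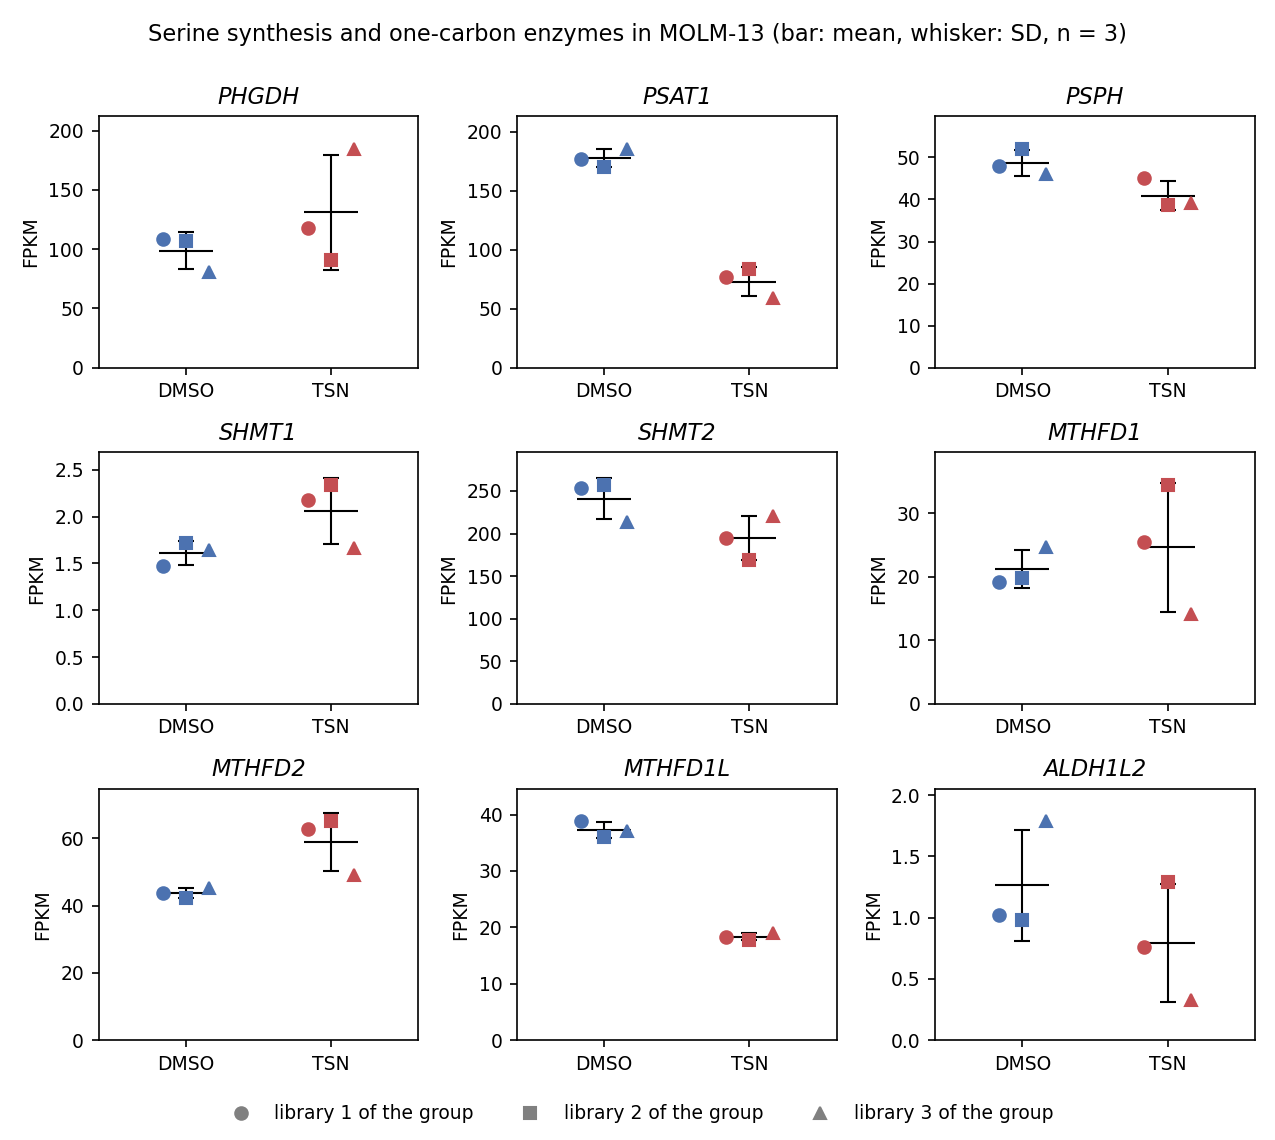
FPKM of the 9 enzymes in the 6 libraries, DMSO in blue and TSN in red, with the mean as a bar and the SD as whiskers (n = 3); each axis starts at 0. PSAT1 and MTHFD1L lie lower in every TSN library, with ranges of 59.13 to 83.52 and 17.77 to 19.02 FPKM, while PHGDH and MTHFD1 spread widely among the TSN libraries.

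Serine synthesis begins with PHGDH, the dehydrogenase that commits 3-phosphoglycerate to serine (ENSG00000092621, GRCh38 chromosome 1, 119648411 to 119744226). PHGDH stood at 108.3, 106.9 and 80.76 FPKM in DMSO 1, 2 and 3 and at 117.5, 90.90 and 184.4 FPKM in TSN 1, 2 and 3. The groups overlapped, because TSN 2 lay below 2 of the DMSO libraries while TSN 3 was far above all others. Its log2 fold change was 0.36 ± 0.28 SE (limma adjusted p = 0.433), with a 95% interval from -0.32 to 1.03. The value rests on the libraries that stand apart: without TSN 3 it was 0.08 (limma adjusted p = 0.80), and without DMSO 3 and TSN 3 together it was -0.06 (limma adjusted p = 0.805).

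PSAT1, the aminotransferase that takes nitrogen from glutamate to make phosphoserine (ENSG00000135069, chromosome 9, 78297143 to 78330093), had the largest drop of the 9 enzymes. It stood at 177.4, 170.2 and 185.5 FPKM in DMSO and at 76.53, 83.52 and 59.13 FPKM in TSN. Each TSN library was at 33.27% to 47.0% of the DMSO mean, and all 3 lay far below the lowest DMSO value. For PSAT1 the log2 fold change was -1.28 ± 0.16 SE with a 95% interval from -1.68 to -0.89 (limma adjusted p = 0.00615). With TSN 1 left out the drop was -1.32 but the limma adjusted p was 0.0601, and without DMSO 3 and TSN 3 it was -1.11 with a limma adjusted p of 0.00314. With 1 DMSO library left out the call stayed close to the threshold (limma adjusted p from 0.0396 to 0.0485). GENCODE also holds the processed pseudogenes PSAT1P1 to PSAT1P4, none of which was listed with values.

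PSPH, the phosphatase that releases free serine (ENSG00000146733, chromosome 7, 56011051 to 56051604), stood at 47.98, 51.98 and 46.01 FPKM in DMSO and at 45.00, 38.68 and 39.08 FPKM in TSN. The groups did not overlap, but TSN 1 lay just below DMSO 3. The log2 fold change of -0.25 ± 0.13 SE did not pass (limma adjusted p = 0.247), with an interval from -0.55 to 0.06. Its value is less certain than the others, since the unprocessed pseudogene PSPHP1 was listed at 19.47 to 38.86 FPKM in the same libraries and near-identical copies can share reads.

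Relative to PHGDH, the place of PSAT1 differed between the groups. In DMSO, PSAT1 was above PHGDH in all 3 libraries, at 1.638, 1.592 and 2.297 times its FPKM. In TSN it was below PHGDH in all 3, at 0.6514, 0.9189 and 0.3207 times. The log2 ratio went from 0.86 ± 0.29 to -0.79 ± 0.77 (SD, n = 3). PSPH moved closer to PSAT1, from 0.2481 to 0.3054 times its FPKM in DMSO to 0.463 to 0.661 times in TSN. A ratio within a library does not depend on how libraries were scaled, but it shows unequal change and not which gene moved, and these pairs were chosen after their values were seen, so no test is given.

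**Figure D2:**
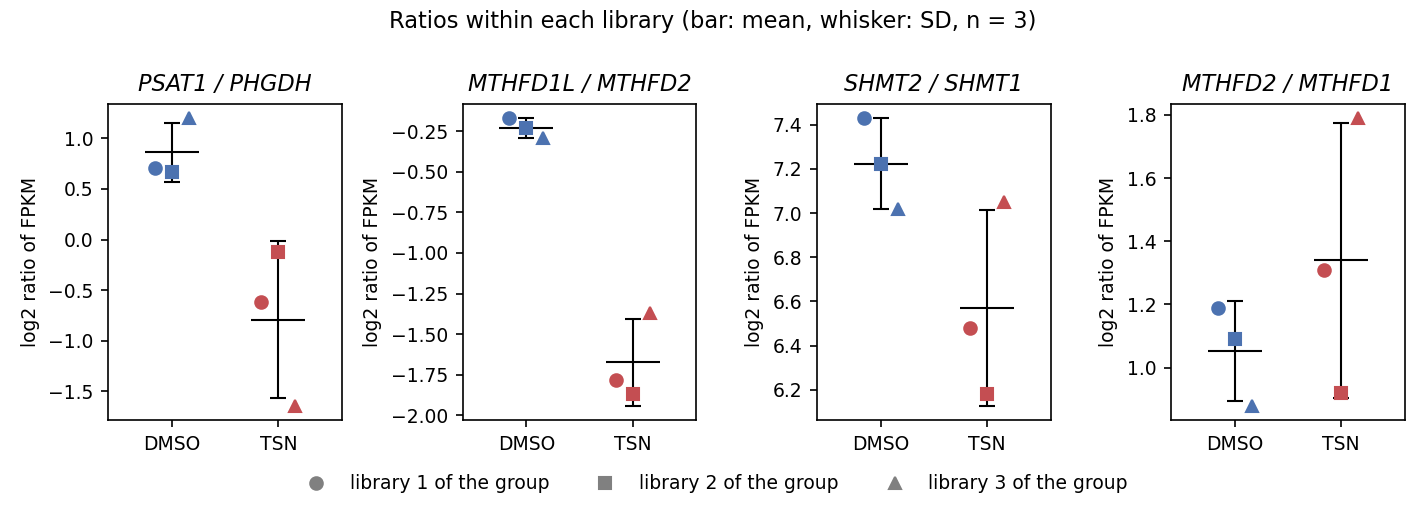
Log2 ratios of FPKM between 2 enzymes of the same library, DMSO in blue and TSN in red, with the mean as a bar and the SD as whiskers (n = 3); the axes do not start at 0. PSAT1 over PHGDH lies above 0 in the DMSO libraries and below 0 in the TSN libraries, and MTHFD1L over MTHFD2 falls from a mean of -0.23 to -1.67. Every ratio shown is more spread in TSN than in DMSO.

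The start region of PSAT1 is shown because it is the enzyme that fell most. RefSeq (GRCh38.p14) gives a window of 250 bases before the gene's start for 6 of the 9 enzymes, those other than PSPH, SHMT2 and ALDH1L2. Each window was searched on both strands for CACGTG, the E-box that MYC and its relatives bind, and for TGATGNAA, the element bound by ATF4 with C/EBP proteins. Over all 35116 promoter windows of the table, 6.34% held the E-box and 3.14% held the C/EBP-ATF element. The PSAT1 window, chr9:78296875-78297124 on the plus strand, held neither of these letters, and nothing about either factor follows from that. It is printed in lower case throughout, since capitals here mark a match.
PSAT1: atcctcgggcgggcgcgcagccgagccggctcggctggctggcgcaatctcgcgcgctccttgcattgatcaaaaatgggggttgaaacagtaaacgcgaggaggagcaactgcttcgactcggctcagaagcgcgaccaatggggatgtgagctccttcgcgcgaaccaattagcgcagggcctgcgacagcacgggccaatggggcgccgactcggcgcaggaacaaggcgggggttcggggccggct

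Among the mitochondrial enzymes, SHMT2 (ENSG00000182199, chromosome 12, 57229327 to 57234935) was the most abundant of the 9 per length, above 98.6% of tested genes in DMSO. It stood at 252.9, 256.6 and 213.6 FPKM in DMSO and at 194.8, 169.2 and 220.8 FPKM in TSN. The groups overlapped, since TSN 3 lay above DMSO 3. The log2 fold change was -0.31 ± 0.16 SE with an interval from -0.70 to 0.08 (limma adjusted p = 0.254). SHMT2 passed as lower after quantile normalization (-0.47, limma adjusted p = 0.0201) and without DMSO 3 and TSN 3 (-0.49, limma adjusted p = 0.0429), a pair chosen from the data. Exons of SHMT2 share 9.5% of their bases with the opposite-strand genes NDUFA4L2 and AC137834.2, and use of strand in counting is not stated.

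MTHFD2, the mitochondrial dehydrogenase and cyclohydrolase (ENSG00000065911, chromosome 2, 74198562 to 74217565), stood at 43.65, 42.17 and 45.37 FPKM in DMSO and at 62.88, 65.01 and 49.02 FPKM in TSN. All TSN values were above all DMSO values, with TSN 3 the closest. Its log2 fold change of 0.41 ± 0.15 SE, with an interval from 0.06 to 0.77, did not pass after adjustment (limma adjusted p = 0.116). It passed as higher without TSN 3 (0.54, limma adjusted p = 0.0136), without DMSO 3 and TSN 3 (0.56, limma adjusted p = 0.0134), after scaling by median log ratios (0.49, limma adjusted p = 0.0343) and after removal of length and GC trends (0.58, limma adjusted p = 0.00517). Exons of MTHFD2 share 33.2% of their bases with the opposite-strand genes SLC4A5 and AC006030.1, and GENCODE holds several pseudogenes of it, so its level is less certain. Of these pseudogenes only MTHFD2P7 was listed with values, at 0.0539 to 0.2987 FPKM.

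MTHFD1L, which releases formate from 10-formyl-tetrahydrofolate in mitochondria (ENSG00000120254, chromosome 6, 150865549 to 151101887), fell in every TSN library by almost the same amount. It stood at 38.77, 35.94 and 37.10 FPKM in DMSO and at 18.25, 17.77 and 19.02 FPKM in TSN. The TSN libraries were at 47.69% to 51.02% of the DMSO mean, a narrower range than for any other of the 9 enzymes, and TSN 3 did not stand apart here. The log2 fold change was -0.98 ± 0.12 SE with an interval from -1.26 to -0.71 (limma adjusted p = 0.00491). Without TSN 1 it was unchanged at -0.98, with a limma adjusted p of 0.0598, and with 1 DMSO library left out that p was 0.0351 to 0.049. Its exons share no bases with another gene of GENCODE 29.

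MTHFD1L and MTHFD2 act in sequence in mitochondria and were set side by side. The FPKM of MTHFD1L was 0.8882, 0.8521 and 0.8177 times that of MTHFD2 in DMSO and 0.2902, 0.2734 and 0.3879 times in TSN. The log2 ratio went from -0.23 ± 0.06 to -1.67 ± 0.27 (SD, n = 3), a description with no test, since the pair was picked after its values were seen.

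MTHFD1L was also the only one of the 6 enzymes with a promoter window in which both motifs were found, and for that reason both matches are shown. RefSeq lists 4 starts for MTHFD1L, and 2 of their overlapping windows hold the same pair of matches. Counted from the start at the end of chr6:150866197-150866446, the E-box begins 115 bases before and the C/EBP-ATF element 90 bases before. MTHFD1 had an E-box 15 bases before its RefSeq start, and PHGDH, SHMT1 and MTHFD2 had neither motif, so matches stood in called and uncalled enzymes alike. The RefSeq starts of MTHFD1L and MTHFD1 differ from GENCODE, so these matches lie inside the GENCODE places given for the 2 genes. The lines that follow give 30 bases of the plus strand with the match in capitals, at chr6:150866320-150866349, chr6:150866346-150866375 and chr14:64388323-64388352 in turn.
MTHFD1L E-box: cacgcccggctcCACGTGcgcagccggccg
MTHFD1L C/EBP-ATF element: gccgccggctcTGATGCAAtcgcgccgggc
MTHFD1 E-box: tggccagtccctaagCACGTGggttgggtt

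ALDH1L2 (ENSG00000136010, chromosome 12, 105019784 to 105084577) was the least abundant of the 9, above only 7.3% of tested genes. It stood at 1.022, 0.9812 and 1.786 FPKM in DMSO and at 0.7623, 1.292 and 0.3295 FPKM in TSN. The groups overlapped, and the spread within each group was about as large as the difference of their means (log2 fold change -0.35 ± 0.24 SE, limma adjusted p = 0.368). Without TSN 3 the value was -0.15 (limma adjusted p = 0.649), and after removal of length and GC trends -0.14 (limma adjusted p = 0.362). A pseudocount of 0.1 in place of 1 gave -0.72, since adding 1 shrinks changes at such levels.

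In the cytosol, MTHFD1, the trifunctional folate enzyme (ENSG00000100714, chromosome 14, 64388031 to 64463457), stood at 19.11, 19.83 and 24.68 FPKM in DMSO and at 25.43, 34.39 and 14.14 FPKM in TSN. TSN 2 was the highest and TSN 3 the lowest of all 6 libraries. The log2 fold change was 0.13 ± 0.32 SE with an interval from -0.63 to 0.89 (limma adjusted p = 0.805). It was -0.14 without TSN 2 (limma adjusted p = 0.706), 0.47 without TSN 3 (limma adjusted p = 0.115) and 0.58 without DMSO 3 and TSN 3, where it passed as higher (limma adjusted p = 0.0421). No direction can therefore be given for MTHFD1.

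SHMT1 (ENSG00000176974, chromosome 17, 18327860 to 18363563) was low, at 1.470, 1.716 and 1.641 FPKM in DMSO and at 2.181, 2.335 and 1.663 FPKM in TSN. TSN 3 lay within the DMSO range and the other TSN libraries above it. The log2 fold change was 0.22 ± 0.14 SE with an interval from -0.11 to 0.55 (limma adjusted p = 0.32). Without TSN 3 it was 0.32 (limma adjusted p = 0.0977), and after removal of length and GC trends 0.30 (limma adjusted p = 0.0626). A pseudocount of 0.1 in place of 1 gave 0.33 (limma adjusted p = 0.332).

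The mitochondrial hydroxymethyltransferase exceeded the cytosolic one by a wide margin in both groups. SHMT2 was at 172.0, 149.5 and 130.2 times the FPKM of SHMT1 in DMSO and at 89.32, 72.46 and 132.8 times in TSN. The mean log2 ratio was 7.23 ± 0.20 in DMSO and 6.57 ± 0.44 in TSN (SD, n = 3), a difference of -0.65 (two-sided exact permutation p = 0.20, 0.40 after Benjamini-Hochberg adjustment over the 2 ratios tested). MTHFD2 over MTHFD1 had a mean log2 ratio of 1.05 ± 0.16 in DMSO and 1.34 ± 0.44 in TSN (exact permutation p = 0.40, adjusted 0.40). With 3 libraries against 3, this test cannot go below 0.10.

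**Figure D3:**
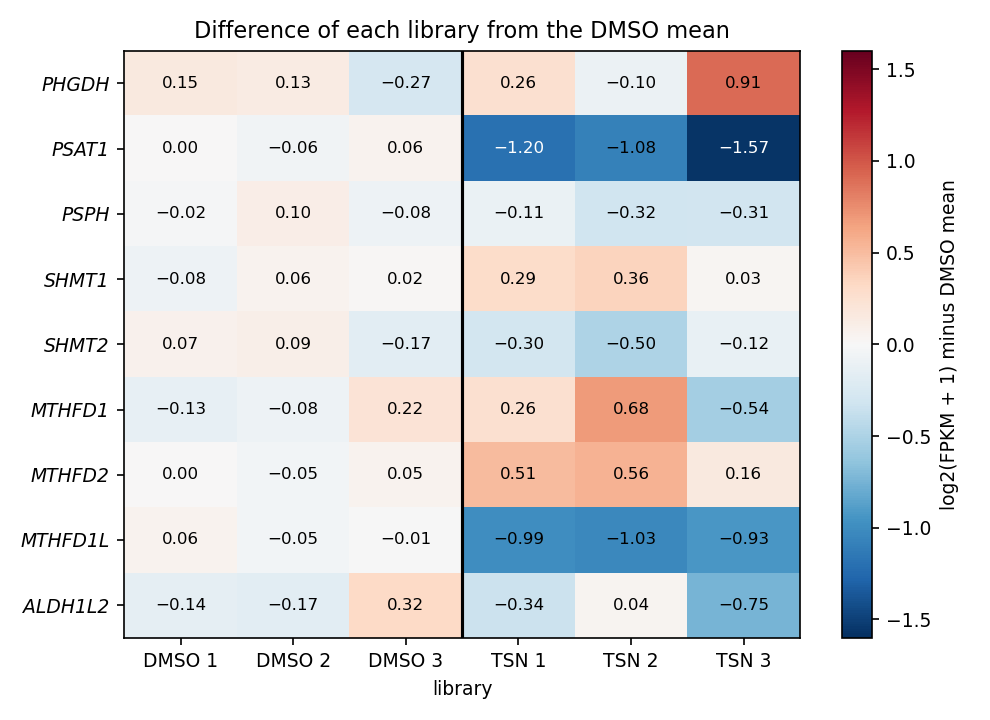
Log2(FPKM + 1) of each enzyme (rows) in each library (columns) minus the enzyme's DMSO mean, with red for higher and blue for lower. MTHFD1L is even across the TSN libraries at -0.99, -1.03 and -0.93, whereas PHGDH is at 0.91 in TSN 3 and -0.10 in TSN 2, and MTHFD1 at -0.54 in TSN 3 and 0.68 in TSN 2.

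By level, the order in DMSO was SHMT2, PSAT1, PHGDH, PSPH, MTHFD2, MTHFD1L, MTHFD1, SHMT1 and ALDH1L2. Ranges of neighbours in that order did not overlap, except those of SHMT1 and ALDH1L2. In TSN, PHGDH stood above PSAT1, MTHFD2 above PSPH, and MTHFD1 above MTHFD1L by mean. There the ranges of SHMT2 and PHGDH, of PSAT1 and MTHFD2, and of MTHFD1 and MTHFD1L overlapped. In DMSO the single-library values of the 7 more abundant enzymes ran from 19.11 to 256.6 FPKM, against 0.9812 to 1.786 FPKM for SHMT1 and ALDH1L2.

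**Figure D4:**
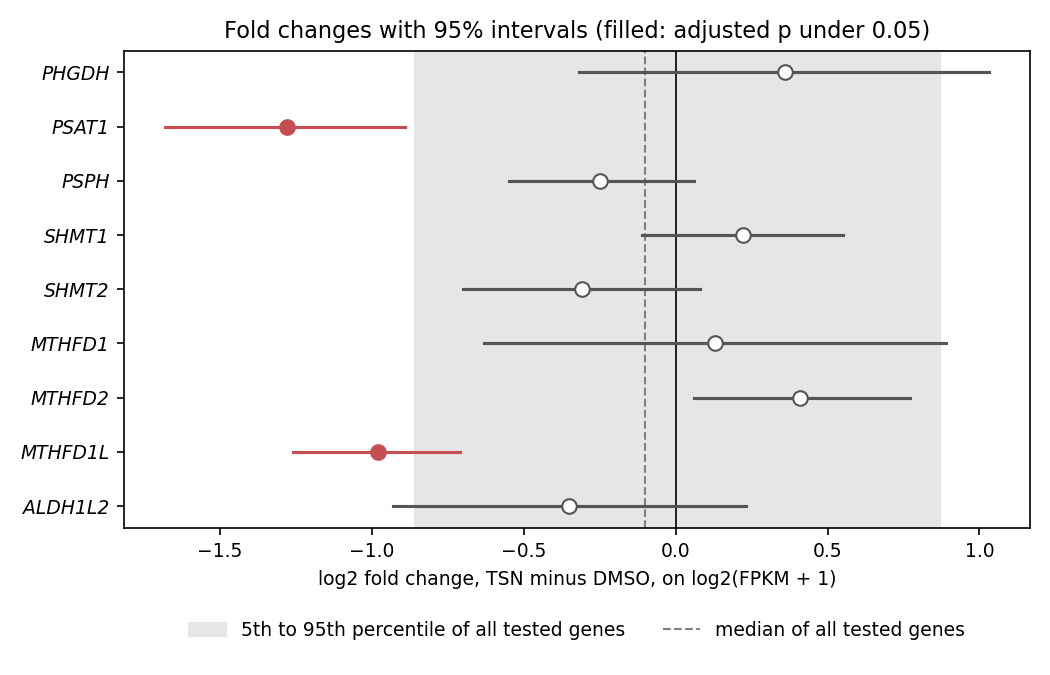
Log2 fold changes of the 9 enzymes on log2(FPKM + 1), TSN minus DMSO, with 95% intervals of the limma fit; filled points passed at an adjusted p under 0.05. The grey band is the 5th to 95th percentile of all tested genes (-0.86 to 0.87) and the dashed line their median (-0.10): PSAT1 at -1.28 and MTHFD1L at -0.98 lie below the band and the other 7 inside it.

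The genes most like PHGDH, SHMT2 and MTHFD2 were found by the root mean square difference over the 6 libraries, in log2 units, among 7866 other genes. SHMT2 was nearest to ATF4 (0.023), followed by TOP1MT and TACC3 (both 0.026). ATF4 itself, the stress-response transcription factor, stood at 584.2, 592.9 and 506.9 FPKM in DMSO and at 441.2, 389.2 and 518.7 FPKM in TSN, a log2 fold change of -0.33 ± 0.17 SE (limma adjusted p = 0.254). ATF4 passed as lower after quantile normalization (-0.60, limma adjusted p = 0.0135) and after removal of length and GC trends (-0.44, limma adjusted p = 0.0272), and was at -0.51 without DMSO 3 and TSN 3 (limma adjusted p = 0.051). As in SHMT2, TSN 3 was the highest TSN library and DMSO 3 the lowest DMSO library. SLC1A5, a carrier of neutral amino acids, and the pseudogene RPL23AP7 completed the 5 nearest to SHMT2, at 0.026 and 0.029. PHGDH was nearest to the ribosomal protein gene RPS4X (0.031), then to DDRGK1, DCTN3, PARP10 and RBM42 (0.035 to 0.039). MTHFD2 was nearest to FXR2 (0.030), STOM (0.031), FGFRL1, RTN4 and NONO (0.036 to 0.043). None of these 15 nearest genes passed the test between the groups, with limma adjusted p from 0.0989 to 0.489. Without TSN 3, however, all 5 nearest to MTHFD2 passed as higher (limma adjusted p from 0.0136 to 0.0214). Of those nearest to SHMT2, TACC3 (limma adjusted p = 0.0237) and SLC1A5 (0.0227) also passed as lower after quantile normalization, and SLC1A5 after removal of length and GC trends (0.0181). TOP1MT (0.0328) and TACC3 (0.0377) passed as lower without DMSO 3 and TSN 3. All these genes were picked for values close to an enzyme's in the same 6 libraries. Calls shared with that enzyme therefore follow largely from the choice and are no separate evidence.

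Lists of related genes were read beside the 9 enzymes, and over all tested genes 14.9% were called, 7.2% as lower and 7.71% as higher. Of 15 other folate enzymes and carriers, 10 were tested, 2 fell and 0 rose, with a median log2 fold change of -0.10. SLC19A1, the reduced folate carrier of the cell surface, fell from 3.168 ± 0.336 to 1.019 ± 0.387 FPKM (SD, n = 3; log2 fold change -1.06 ± 0.18 SE, limma adjusted p = 0.0137). MTHFD2L, a mitochondrial relative of MTHFD2, fell from 5.181 ± 0.524 to 2.795 ± 0.218 FPKM (-0.70 ± 0.14 SE, limma adjusted p = 0.0216). Without any 1 of DMSO 1, DMSO 2, DMSO 3 or TSN 1, 0 of the list were called, with limma adjusted p from 0.0583 to 0.122 for these 2 genes and log2 fold changes of down to -1.19 for SLC19A1 and of -0.75 to -0.63 for MTHFD2L. MTHFD2L was at -0.45 after removal of length and GC trends (limma adjusted p = 0.185).

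In the glycine cleavage system, which breaks glycine down in mitochondria, DLD alone was tested of 4 genes. It had 90.97 ± 4.90 FPKM in DMSO against 63.80 ± 11.5 in TSN (-0.52 ± 0.17 SE, limma adjusted p = 0.0887), and it passed as lower without TSN 3 (-0.36, limma adjusted p = 0.0492). GLDC, the glycine decarboxylase, had 0.2926 ± 0.139 FPKM in DMSO against 0.0651 ± 0.0465 in TSN, below the filter. The remaining subunits AMT and GCSH were also listed under 1 FPKM.

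Of 12 genes of the methionine cycle and transsulfuration, 9 were tested and 0 were called by limma, with a median of -0.25. MAT2A, which makes S-adenosylmethionine, stood at 349.9, 378.3 and 519.2 FPKM in DMSO and at 161.0, 227.0 and 53.54 FPKM in TSN. The groups did not overlap, but the spread among TSN libraries was wide (-1.70 ± 0.52 SE, limma adjusted p = 0.0777). It passed as lower without TSN 2 (-2.13, limma adjusted p = 0.0311), without TSN 3 (-1.10, limma adjusted p = 0.0266), without DMSO 3 and TSN 3 (-0.92, limma adjusted p = 0.0191), and after removal of length and GC trends (-1.58, limma adjusted p = 0.0363). AHCY, which clears S-adenosylhomocysteine, had 161.9 ± 3.77 FPKM in DMSO against 206.3 ± 7.46 in TSN (0.35 ± 0.12 SE, limma adjusted p = 0.112). At an unadjusted p under 0.05, 5 of the 9 passed, where 30.8% of all tested genes did, and voom called 0.

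Of 10 carriers of serine and glycine, 8 were tested, 1 rose and 0 fell, with a median of 0.16, where 14.9% of all tested genes were called. SFXN3, a member of the sideroflexin family to which the mitochondrial serine carrier SFXN1 belongs, had 5.675 ± 0.292 FPKM in DMSO and rose to 10.51 ± 2.24 in TSN (0.77 ± 0.18 SE, limma adjusted p = 0.0358). Its call was lost without any 1 of DMSO 1, DMSO 2, DMSO 3, TSN 1 or TSN 2 (0.63 to 0.79, limma adjusted p from 0.0554 to 0.161), and 2 of the 8 were called without TSN 3. Of 10 genes that use serine outside the folate route, for sphingolipids, phosphatidylserine or pyruvate, 9 were tested and 0 were called by limma (median -0.16; 1 of the 9 at an unadjusted p under 0.05, and 0 by voom). SERINC3, of a membrane protein family named for serine incorporation, had 41.88 ± 6.18 FPKM in DMSO against 38.92 ± 13.5 in TSN (-0.16 ± 0.28 SE, limma adjusted p = 0.743; 0.15 without TSN 3). PTDSS1, a phosphatidylserine synthase, stood at 42.09 ± 0.622 and 35.26 ± 4.40 FPKM (-0.26 ± 0.14 SE, limma adjusted p = 0.257; -0.15 without TSN 3).

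The transcription factors tied to the route and their other genes were read beside it. MYC dropped from 211.5 ± 3.13 to 86.57 ± 8.38 FPKM (-1.28 ± 0.13 SE, limma adjusted p = 0.00361; -1.34 and limma adjusted p = 0.0564 without TSN 1). In the list of MYC and its partners, 9 were tested, 2 fell and 0 rose (median -0.11), where 14.9% of all tested genes were called. Besides MYC, the called gene was MLX, the partner of the Mondo factors (-0.79 ± 0.14 SE, limma adjusted p = 0.0153). Without any 1 of DMSO 1, 2 or 3, 1 of the list was called, and 0 without TSN 1, with MLX at -0.86 to -0.76 and limma adjusted p from 0.0689 to 0.10. DDX5, the helicase named in the series title, stood at 126.4 ± 14.9 and 92.61 ± 31.2 FPKM (-0.50 ± 0.28 SE, limma adjusted p = 0.274; -0.20 without TSN 3 and -0.11 without DMSO 3 and TSN 3, limma adjusted p = 0.378 and 0.578).

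Of 18 genes in the list of ATF4 and its targets, 16 were tested, 5 fell and 2 rose, with a median of -0.27. Over all tested genes 7.2% were called as lower and 7.71% as higher. The cystine carrier SLC7A11 fell from 10.45 ± 1.56 to 2.499 ± 0.854 FPKM (-1.73 ± 0.23 SE, limma adjusted p = 0.00706). CEBPG, a C/EBP protein that pairs with ATF4, fell from 45.32 ± 3.29 to 19.83 ± 3.53 FPKM (-1.17 ± 0.17 SE, limma adjusted p = 0.0083). GPT2, a mitochondrial alanine aminotransferase, fell from 79.36 ± 2.38 to 42.14 ± 2.32 FPKM (-0.90 ± 0.12 SE, limma adjusted p = 0.00619). ATF3, a stress-induced transcription factor, had 5.646 ± 0.490 FPKM in DMSO and rose to 23.75 ± 3.09 in TSN (1.89 ± 0.16 SE, limma adjusted p = 0.00212), and DDIT4, an inhibitor of mTORC1 signalling, with 100.2 ± 11.4 FPKM in DMSO, rose to 170.5 ± 13.8 (0.76 ± 0.15 SE, limma adjusted p = 0.0208). Called genes of this list thus stood in both directions. The number called was 2 without DMSO 1 or DMSO 2, 4 without DMSO 3 and 0 without TSN 1. For the 5 named genes the limma adjusted p was 0.0511 to 0.119 without TSN 1.

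**Figure D5:**
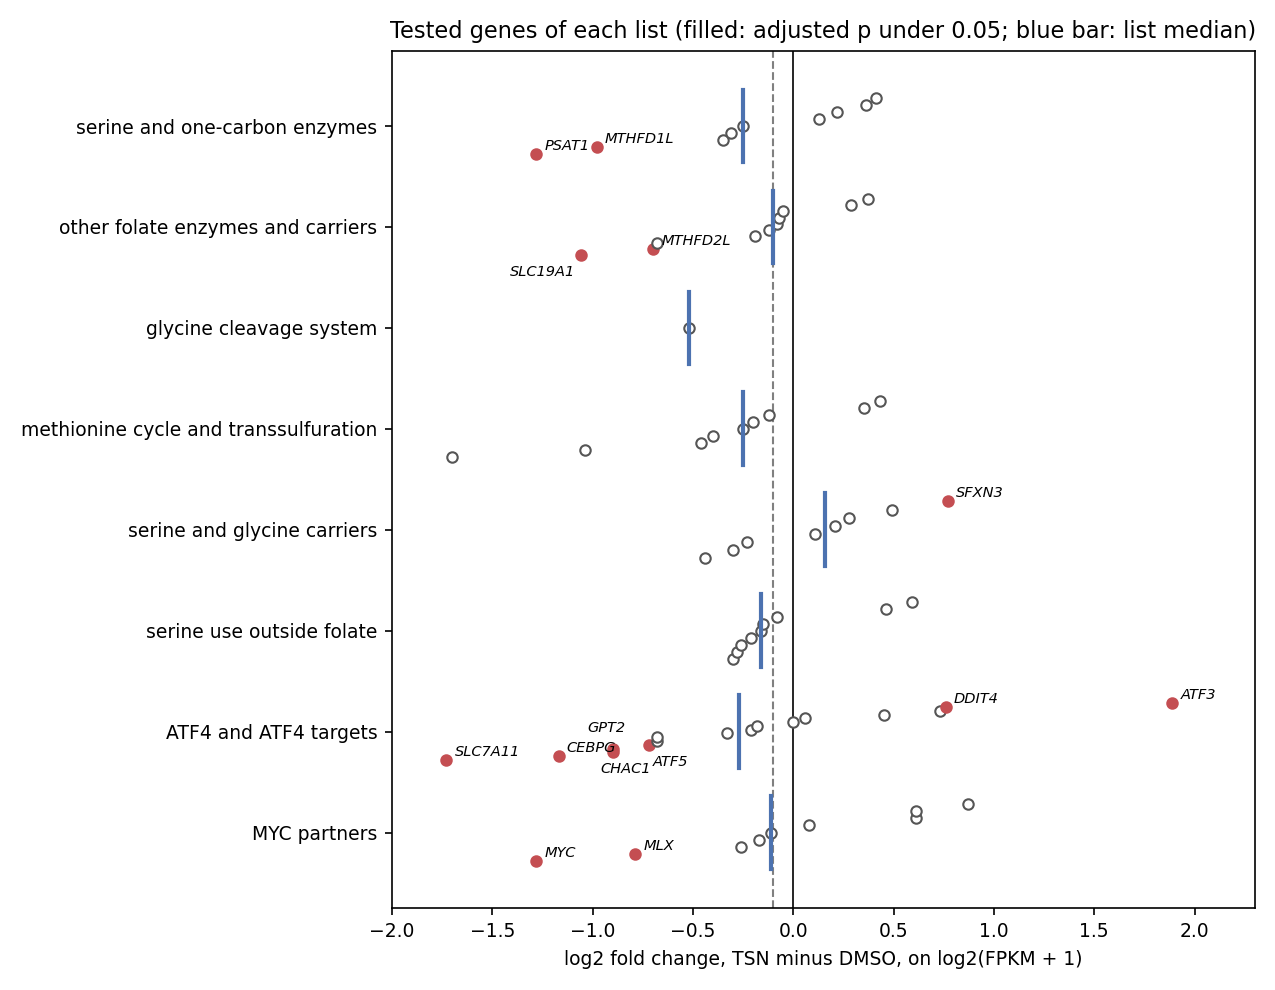
Log2 fold change on log2(FPKM + 1), TSN minus DMSO, of each tested gene in the 9 enzymes and 7 related lists (rows), with filled points for an adjusted p under 0.05, vertical offsets that only separate points, a blue bar for the list median and a dashed line for the median of all tested genes (-0.10). List medians lie between -0.52 and 0.16, and called genes stand on both sides of 0 in the ATF4 list.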

How the data were processed

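RNA was extracted with RNAiso Plus and sequenced on a NovaSeq X Plus, per the labels' protocols. The authors deposited 1 table of 30741 genes, whose unit was read from the values as FPKM, because low values of single-exon genes times exon length were whole multiples of 1 step per library in 94.2% to 95.2% of cases (tolerance 0.1); over all genes this held for 68.4% to 71.9%. That step gave the depth; reconstructed fragments, using GENCODE exon lengths, summed to 143.3% to 150.9% of it, so they are too many for some multi-exon genes. The build GRCh38 and DESeq2 1.26.0 are named in the submitters' processing notes. For aligner, counter, strand use and annotation the sources used here give nothing. The 11440 genes that reached 1 FPKM in 3 or more libraries were tested with limma 3.58.1 (trend, robust) in R 4.3.3 on log2(FPKM + 1), which understates changes of low genes; SE and 95% intervals are from that fit, and the design assumed for counts was not used. FPKM are relative to each library's total. Places, exon lengths and overlaps came from GENCODE 29, which held 93.7% of the genes. Exons of some related genes also share bases with opposite-strand genes, such as DDIT4 (41.2%) and TYMS (46.6%), so their levels are less certain. The procedure was tested on simulated counts with the same spread in every library. No simulated library stood apart as TSN 3 did, so that test does not show how the calls hold in these data. Replicates were not one library deposited more than once: DMSO 1 and DMSO 2, the closest, differed with a chi-square per degree of freedom of 9.39 on reconstructed fragments. Nothing beyond the words biological replicates says that libraries are separate cultures. All 9 enzymes are named; from each related list, the called genes with the smallest adjusted p (at most 3 in each direction), or the 2 of highest mean where none passed; MYC, ATF4 and DDX5 always; and the 5 nearest profiles for 3 enzymes, among genes whose mean reached 5 FPKM in either group. Alternatives, given in the closing section, were other pseudocounts, filters, scalings and moderation, a replicate block, libraries left out, removal of trends with length and GC, and voom on reconstructed fragments. The p-values measure only the spread between these libraries. 1 gene of the related lists is not reported here and was left out of its list's counts. The enzymes, lists and tests were chosen with earlier results of these data known. Figures used matplotlib 3.10.9, tables pandas 2.3.3 in Python 3.11.15.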

Additional observations from a re-analysis of the deposited data

How the results depend on the processing

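Over all genes, the count of 1706 called among 11440 tested became 777 of 30741 with no filter on low values. It was 1002 of 7435 with a mean of at least 5 FPKM. With median log ratio scaling it was 2014 of 11440, and with quantile normalization 2252 of 11440. The count was 2978 of 10790 without DMSO 3 and TSN 3, and 3380 of 11242 once trends with length and GC were removed. It ran from 24 to 2513 with 1 library left out. Higher and lower calls, 882 and 824, became 523 and 254 with no filter, 446 and 556 under the filter on a mean of 5 FPKM, 240 and 72 without DMSO 1, 202 and 45 without DMSO 2, 294 and 143 without DMSO 3, 23 and 1 without TSN 1, and 739 and 1040 without TSN 2. Of the 9 enzymes, 0 to 3 were called with 1 library left out and 5 without DMSO 3 and TSN 3, where ALDH1L2 fell below the filter. PSAT1 and MTHFD1L kept their calls under every setting except the replicate block and the fit without TSN 1. In the other folate genes, 2 calls became 1 with no filter and 0 with a mean of at least 5 FPKM (0 to 3 with 1 library left out). Glycine cleavage went from 0 to 1 after trend removal (0 to 1). The methionine cycle went from 0 to 1 with median log ratio scaling or quantile normalization, 2 without DMSO 3 and TSN 3 and 3 after trend removal (0 to 2). Carriers went from 1 to 0 with no filter, 2 with median log ratio scaling, 3 with quantile normalization or without DMSO 3 and TSN 3, and 5 after trend removal (0 to 2). The ATF4 list went from 7 to 4 with no filter and 11 after trend removal (0 to 8), and MYC partners from 2 to 1 with no filter and 4 with quantile normalization (0 to 3). The cause was not tested.

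Signs reversed without DMSO 3 and TSN 3 for PHGDH (-0.06) and its nearest genes RPS4X (-0.00), DDRGK1 (-0.12), DCTN3 (-0.10), PARP10 (-0.07) and RBM42 (-0.11), and for SERINC3 (0.26; 0.15 without TSN 3). MTHFD1 reversed to -0.14 without TSN 2 and ran from there to 0.47 with 1 library left out; SERINC3 ran from -0.37 to 0.15. None of these differences was called. Same-numbered libraries deviated from their group means in opposite ways (r = -0.317, -0.646 and -0.835 across genes). Libraries of unlike number reached r = 0.865 (DMSO 3 with TSN 2) and 0.742 (DMSO 1 with TSN 3). With 3 libraries per group, each centred on its group mean, these values cannot show whether libraries were handled in pairs. With a replicate block 0 genes were called over all genes, among the 9 enzymes and in every list. PSAT1 then had a limma adjusted p of 0.109 and MTHFD1L of 0.118. Alternatives planned for counts were not run, since the table holds FPKM. Leaving out DMSO 3 and TSN 3, trend removal and voom were added after the data were seen. Depth limits the enzymes little, since 1 fragment per kb was worth 0.0198 to 0.0269 FPKM.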

Other observations

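Other genes of the methionine cycle and transsulfuration did not pass the test and were picked out after their values were seen. MTRR, which reactivates methionine synthase, had a mean of 44.76 ± 9.11 FPKM in DMSO against 22.62 ± 10.1 in TSN (SD, n = 3; limma adjusted p = 0.109). CTH, the last enzyme of transsulfuration, stood at 3.033 ± 0.0188 and 1.941 ± 0.308 FPKM (limma adjusted p = 0.0638). GNMT, which uses S-adenosylmethionine to methylate glycine, stood at 2.155 ± 0.565 and 3.202 ± 0.154 FPKM (limma adjusted p = 0.143). The groups did not overlap in any of these 3 genes, which also held for 39.2% of all tested genes. TYMS, which spends methylene-tetrahydrofolate on thymidylate, stood at 32.70, 33.51 and 38.00 FPKM in DMSO and at 48.51, 55.43 and 28.49 in TSN, with TSN 3 again the lowest and TSN 2 the highest, as in MTHFD1.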
